A study of Caenorhabditis elegans with 2 samples.

Results

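RNase P RNA, RNase MRP RNA, the Y RNA and the RNAs of the signal recognition particle (SRP) are short structured RNAs that work inside protein complexes. The values below describe where a tagged MADF-5 protein lay at the 8 *Caenorhabditis elegans* genes that encode them, namely rpr-1, mrpr-1, yrn-1, srpr-1.1, srpr-1.2, srpr-2.1, srpr-2.2 and srpr-3. These are 8 of the 31527 annotated genes that remain when piRNA genes are left out. They were listed by name and placed by the Ensembl WBcel235 annotation, and they were chosen with their peaks known, so their peaks are given as a description and with no test.

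MADF-5 was expressed from a fosmid transgene, wgIs436, in which the gene (C01G12.1) carries TY1, EGFP and 3xFLAG tags. Both samples were whole L4 larvae of strain OP436, which also holds unc-119(+) on the transgene and the unc-119(tm4063) mutation, collected at 50 hours after a synchronising L1 starvation. The samples were 2 biological replicates of 1 group, no condition was compared with another, and the immunoprecipitation used an antibody against GFP. Whole animals mix all cell types, both replicates come from 1 transgenic line, and the control library named in the labels was not analysed here.

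RNase P cuts the leader from tRNA precursors, and RNase MRP, its relative, takes part in the maturation of ribosomal RNA. The SRP directs ribosomes that make secreted proteins to the endoplasmic reticulum, with its RNA as the scaffold, and the Y RNA is bound by the Ro protein, encoded in the worm by rop-1. RNAs of all these kinds are made by RNA polymerase III. In vertebrates the promoters of the RNase P, RNase MRP and Y RNA genes lie before the gene, with a TATA box and a proximal sequence element, whereas tRNA genes are driven by A and B boxes inside the gene.

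The bases before the gene starts are shown first because the peaks lay there or just inside the genes. They were read from the WBcel235 assembly (RefSeq copy) on the strand of the gene, 80 bases each, ending at the base before the start. In the first pair, the capitals mark the letters TGTCNGNC and then GTATATA.
mrpr-1, chrII:7200153-7200232, plus strand: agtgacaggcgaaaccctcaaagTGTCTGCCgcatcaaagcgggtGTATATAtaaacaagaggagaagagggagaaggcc
yrn-1, chrIV:7499428-7499507, plus strand: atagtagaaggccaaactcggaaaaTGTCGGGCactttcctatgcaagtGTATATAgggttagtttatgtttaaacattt

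In the SRP RNA genes, the capitals mark TTATATTT and then GAAAAACC, where they occur.
srpr-1.1, chrIII:4379207-4379286, minus strand: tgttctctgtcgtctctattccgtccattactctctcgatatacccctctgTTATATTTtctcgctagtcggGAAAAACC
srpr-1.2, chrIII:4369388-4369467, plus strand: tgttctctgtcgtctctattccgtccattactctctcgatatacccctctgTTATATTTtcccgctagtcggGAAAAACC
srpr-2.1, chrIII:5211140-5211219, plus strand: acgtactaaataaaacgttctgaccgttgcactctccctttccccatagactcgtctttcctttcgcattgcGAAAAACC
srpr-2.2, chrIII:5031709-5031788, minus strand: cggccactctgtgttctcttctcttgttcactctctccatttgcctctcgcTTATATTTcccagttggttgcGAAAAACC
srpr-3, chrV:9293633-9293712, minus strand: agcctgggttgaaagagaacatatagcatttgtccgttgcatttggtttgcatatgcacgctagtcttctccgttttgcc

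The genes themselves differ in kind. The Y RNA gene, the shortest of the 8 at 105 bp, and the RNase MRP RNA gene, at 186 bp, read as follows. The capitals in yrn-1 mark a match to the B box core GTTCNANNC, which starts 63 bp downstream of the start.
yrn-1, chrIV:7499508-7499612, plus strand: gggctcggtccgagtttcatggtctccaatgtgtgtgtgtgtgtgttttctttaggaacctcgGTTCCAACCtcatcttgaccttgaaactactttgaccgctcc
mrpr-1, chrII:7200233-7200418, plus strand: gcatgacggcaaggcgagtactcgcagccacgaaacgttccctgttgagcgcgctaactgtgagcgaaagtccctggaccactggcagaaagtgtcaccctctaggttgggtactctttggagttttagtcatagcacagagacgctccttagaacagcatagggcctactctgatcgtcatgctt
The SRP RNA gene with the strongest peak in the whole-series lists, srpr-2.2, though in neither replicate alone, stands for the 5 SRP RNA genes, which are 298 or 299 bp long.
srpr-2.2, chrIII:5031410-5031708, minus strand: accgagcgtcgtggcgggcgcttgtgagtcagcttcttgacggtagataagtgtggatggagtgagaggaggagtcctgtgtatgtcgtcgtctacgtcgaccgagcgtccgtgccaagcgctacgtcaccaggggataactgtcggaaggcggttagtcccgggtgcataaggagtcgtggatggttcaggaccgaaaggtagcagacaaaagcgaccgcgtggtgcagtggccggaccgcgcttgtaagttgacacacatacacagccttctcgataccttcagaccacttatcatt

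The authors deposited a ranked list of all peaks and a thresholded list of reproducible peaks for each replicate, and the same for both replicates together. A conservative list of 813 thresholded peaks stood beside 116935 ranked peaks, and the other whole-series list held 844 of 117964. Replicate 1 had 411 thresholded peaks among 64186 ranked peaks, and replicate 2 had 254 among 70113. The scale of the signal values is not stated and the read depth is unknown, so signal is compared as a rank within a list, where a rank at 1% means that 1 peak in each 100 was as strong or stronger.

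A ranked MADF-5 peak lay at the start of all 8 genes in the conservative ranked list, and all 8 were in the top 5% of that list by signal. Of all annotated genes, 25103 (79.6%) had a ranked summit within 500 bp of their start, so that presence alone sets the 8 genes little apart. Of those 25103, 9.24% had a nearest ranked summit in the top 5%. The median signal percentile was 99.4 for the 8 genes and 56.3 for all 25103. Summits stood a median of 12 bp from the start for the 8 genes, against 130 bp for all of these genes. The tRNA genes were near the 8 in this, with a median of 30 bp, and 72.7% of them were in the top 5%. In replicates 1 and 2 alone, the medians were 28.5 and 15 bp for the 8, and 31.5 and 34 bp for tRNA genes. In the conservative ranked list the summit lay within 50 bp of the start at 7 of the 8 genes. At srpr-3 it lay 113 bp inside the gene.

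The conservative thresholded list took in 4 of these peaks, those at rpr-1, mrpr-1, srpr-1.1 and srpr-2.2, which makes 4 of 8 genes where 3.82% of the 25103 genes were called. The other whole-series list called 5 of the 8, with srpr-2.1 added, against 3.78% of the same genes. In the own list of replicate 1, 3 of 8 were called (rpr-1, mrpr-1 and srpr-2.2), against 2.04%, and in that of replicate 2, 2 of 8 (rpr-1 and srpr-2.1), against 1.16%. These shares describe genes that were picked for their peaks and support nothing beyond that. The authors' score for reproducibility (irreproducible discovery rate, IDR) has a ceiling of 1000 and was 830 or more in the conservative list. It was 1000 for each of the 4 called genes, and among the others it was 710 for srpr-2.1, 619 for srpr-1.2, 532 for yrn-1 and 396 for srpr-3.

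**Figure D1:**
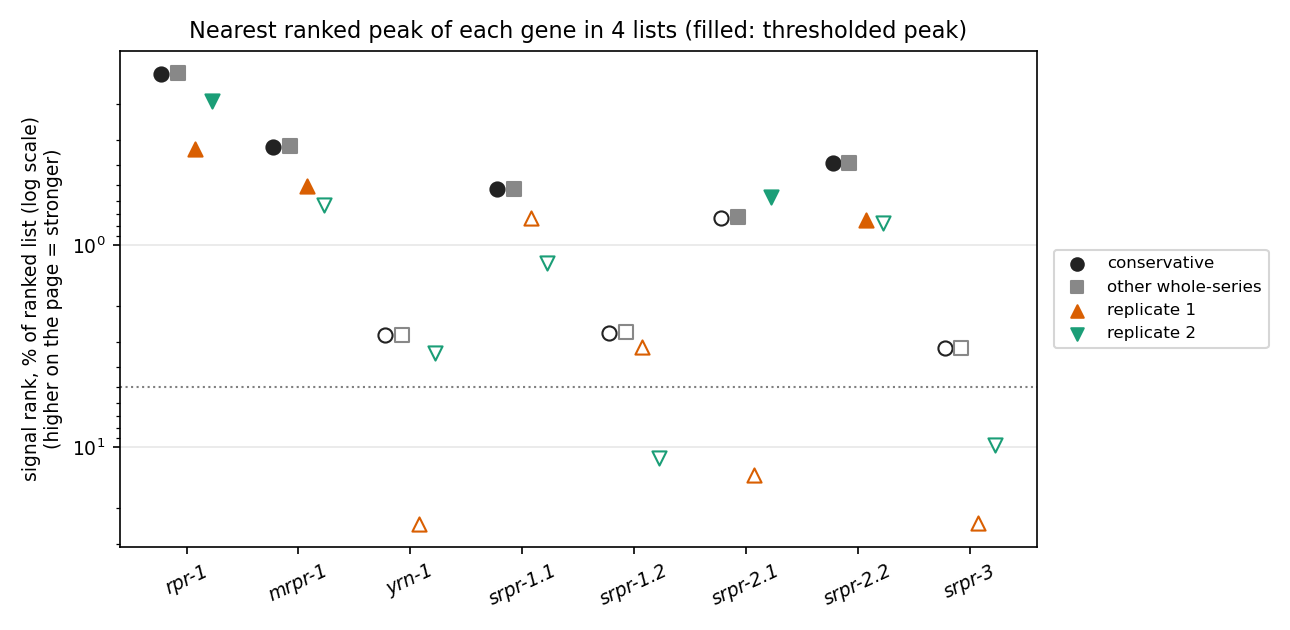
Signal rank of the nearest ranked peak of each gene, as a percentage of the list on a log axis with stronger peaks higher, in the 2 whole-series lists and in each replicate. Filled symbols mark genes with a peak in the thresholded list and the dotted line marks 5%. In the whole-series lists all 8 genes lie above the line, while yrn-1, srpr-2.1 and srpr-3 lie below it in replicate 1, and srpr-1.2 and srpr-3 in replicate 2.

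The RNase P RNA gene rpr-1 had the strongest peak of the 8. It lies on chromosome I from 13463955 to 13464207, inside an intron of ints-8 on the opposite strand, and its peak spans 13463857 to 13464080. Signal was 127 in the conservative list, rank 77 of the 813 peaks, with the summit 14 bp downstream of the start. In replicate 1 it was 59.8, rank 213 of 64186 or 0.332% of the ranked list, and in replicate 2 it was 67.99, rank 136 of 70113 or 0.194%. The replicate summits, 16 and 22 bp downstream of the start, were 6 bp apart. Of the 8 genes, it alone was called in each replicate taken by itself.

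The RNase MRP RNA gene mrpr-1 followed. It lies on chromosome II, and its peak (7200131 to 7200354) had a signal of 87.1, rank 257 of the 813, with the summit 10 bp downstream of the start. In replicate 1 the signal was 50.5 (0.508% of the ranked list, score 1000) and in replicate 2 it was 43.2 (0.629%, score 763). Its rank was thus similar in both replicates, while the score passed the threshold in replicate 1 and missed it in replicate 2. The summits of the replicates were 66 bp apart, 12 bp upstream and 54 bp downstream of the start. The start of the protein-coding gene pcrg-1 lies 306 bp from the same summit.

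The Y RNA gene yrn-1 had a weaker peak that was found in replicate 2 and not at the gene in replicate 1. The gene lies on chromosome IV within an intron of F55G1.15 on the opposite strand, and an ncRNA gene, F55G1.20, overlaps it on that strand and starts 88 bp from the summit. The conservative ranked peak (7499443 to 7499666) had a signal of 46.1, rank 3255 or 2.78% of the list. In replicate 2 the nearest summit was 8 bp downstream of the start, with a signal of 28.5 (3.41% of the list, score 212). In replicate 1 the nearest summit lay 365 bp downstream, past the end of the gene, with a signal of 18.1 (24.0%, score 39). No thresholded list called it, and its nearest conservative peak was 74.6 kb away.

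**Figure D2:**
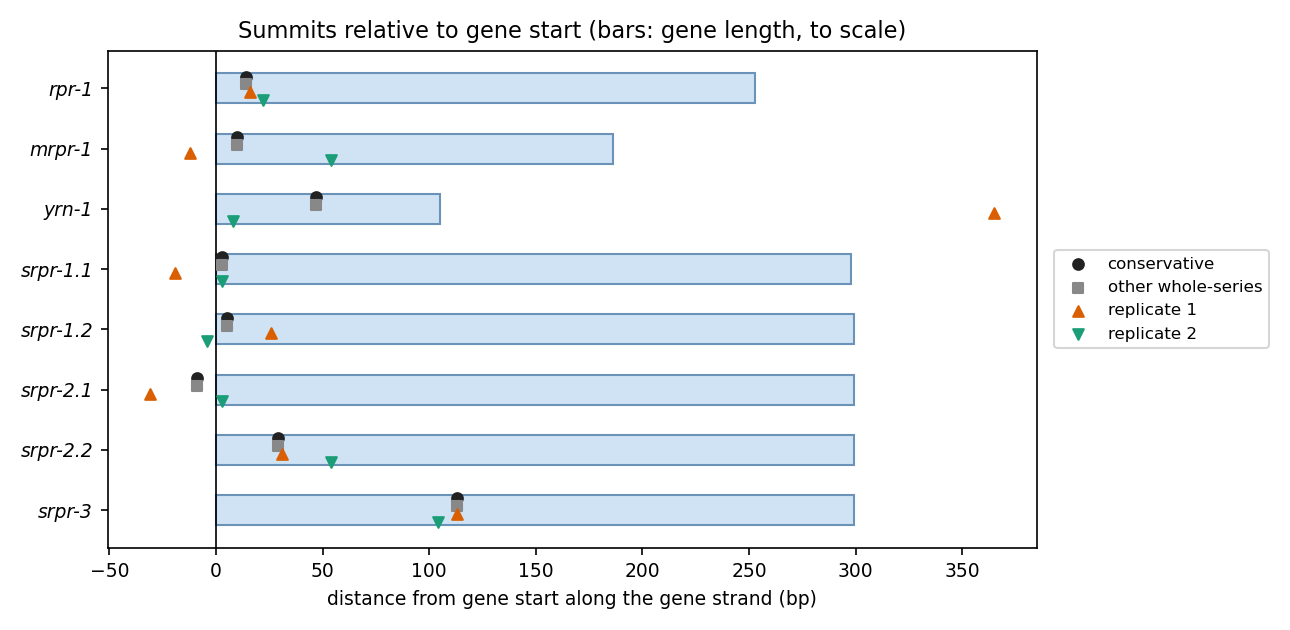
Distance of the nearest ranked summit from the start of each gene, along the gene strand in bp, with the gene drawn to scale as a bar and 1 symbol for each of 4 lists. Most summits lie within 54 bp of the start, those of srpr-3 lie 104 to 113 bp inside the gene, and that of yrn-1 in replicate 1 lies 365 bp downstream.

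The SRP RNA genes formed a graded series. In the conservative ranked list srpr-2.2 stood at 0.393% of the list by signal, srpr-1.1 at 0.528%, srpr-2.1 at 0.735%, srpr-1.2 at 2.71% and srpr-3 at 3.22%. With 2 replicates, and places that shifted between them, the order of neighbours in this series is not resolved. The first 4 lie on chromosome III and srpr-3 lies on chromosome V.

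srpr-2.2 lies in an intron of the kinesin gene klp-6 on the opposite strand, and the ncRNA gene R144.16 overlaps it and starts 138 bp from the summit. Its peak (5031567 to 5031790) had a signal of 81.1, rank 329 of the 813. Replicate 1 gave a signal of 43.8 (0.751% of the list, score 1000) and replicate 2 gave 40.1 (0.772%, score 765). The ranks nearly coincided, and the score in replicate 2 fell short of the threshold.

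srpr-1.1 lies from 4378909 to 4379206 on the minus strand. Its peak (4379091 to 4379314) had a signal of 71.8, rank 458 of the 813, with the summit 3 bp downstream of the start. Replicate 1 gave 44.1 (0.735%, score 783) and replicate 2 gave 35.5 (1.22%, score 434). The gene was therefore called from both replicates together, and in neither replicate's own list.

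srpr-2.1 (5211220 to 5211518, plus strand) had unlike places in the replicates by the signal of the peak. In replicate 2 its signal was 44.8, rank 402 or 0.573% of the list, with the top score of 1000 and the summit 3 bp downstream of the start. In replicate 1 it was 20.9, rank 8792 or 13.7%, with a score of 687 and the summit 31 bp upstream. It entered the other whole-series list at rank 627 of 844, with a score of 1000, while its score in the conservative ranked list was 710. By the sum of the 2 input signals that the ranked lists also hold, a reading added after seeing the data, it stood at 1.33% in replicate 1 and at 0.377% in replicate 2.

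srpr-1.2 lies in an intron of ckb-2 on the same strand, from 4369468 to 4369766. Signal was 28.5 in replicate 1 (3.18% of the list, score 301) and 22.8 in replicate 2 (11.2%, score 34). Its score was 619 in the conservative ranked list and 670 in the other one, below the threshold in both. srpr-3 (9293334 to 9293632, minus strand) overlaps the ncRNA gene F44A2.13 on the same strand, whose start lies 113 bp from the same conservative ranked summit. Signal there was 18.2 in replicate 1 (23.6%, score 45) and 23.5 in replicate 2 (9.72%, score 25), with the summits 9 bp apart and over 100 bp inside the gene. Neither srpr-1.2 nor srpr-3 was called in a thresholded list.

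The SRP RNA genes are near copies of each other, which bears on how reads could be placed. Over the transcribed gene srpr-1.1 and srpr-1.2 were 98.3% identical (4 mismatched bases and 1 gap), and srpr-2.1 and srpr-2.2 were 99.0% identical (3 mismatched bases). Between the first pair and the second the identity was 94.0 to 94.3%, and srpr-3 was 81.7 to 82.5% identical to the others. Before the start the picture differed. Over 100 bases, compared without gaps, srpr-1.1 and srpr-1.2 were 95% identical, srpr-2.1 and srpr-2.2 34%, and srpr-2.2 was nearer to the srpr-1 pair (59%) than to srpr-2.1.

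**Figure D3:**
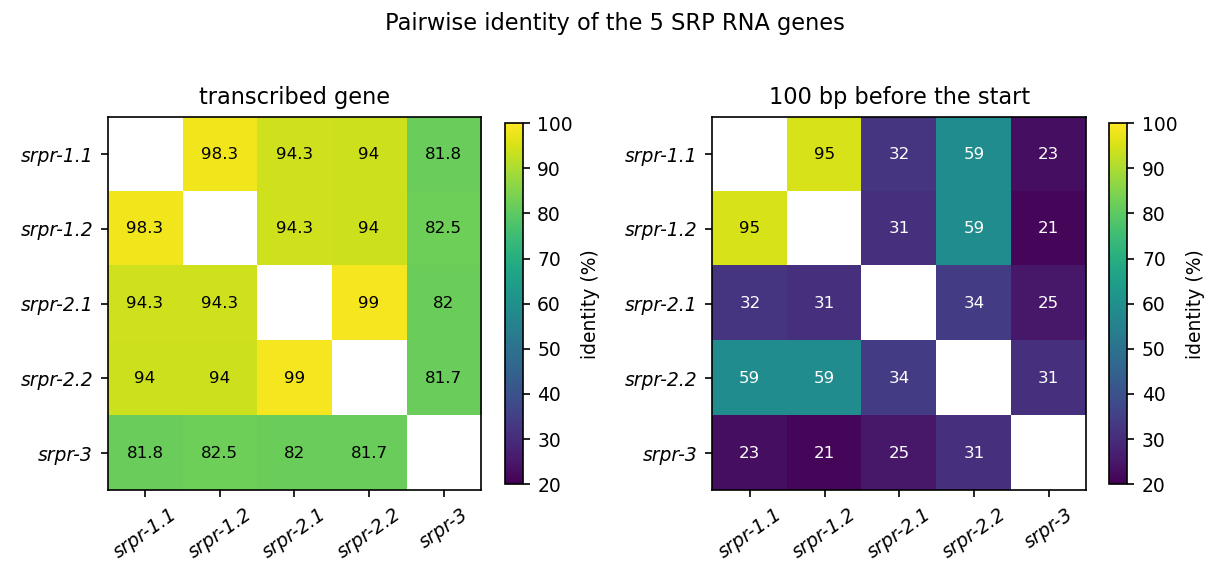
Pairwise identity in percent of the 5 SRP RNA genes over the transcribed gene (left) and over the 100 bp before the start, compared without gaps (right), with colour and number giving the same value. Within the transcribed gene all pairs are above 81%, and before the start only the srpr-1 pair exceeds 59%.

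The sequence under the peaks of these copies was partly not unique. Of the 36-base words in the 224 bp conservative ranked peak, 31.7% occur once in the genome at srpr-1.1, 50.3% at srpr-1.2, 56.1% at srpr-2.2 and 63.0% at srpr-2.1. With 50-base words these shares were 45.1%, 70.3%, 68.6% and 68%. All such words were unique at rpr-1, mrpr-1, yrn-1 and srpr-3. Read length and the treatment of reads with several matches are not stated in any source at hand, so the signals of the srpr-1 and srpr-2 genes are uncertain as measures of each copy, and the part of shared sequence in them was not tested. Within the srpr-1 pair, srpr-1.1 had the higher signal in both replicates (44.1 and 35.5 against 28.5 and 22.8). Its peak holds the smaller share of unique words, and any bearing of that share on the signal was not tested. Within the srpr-2 pair, srpr-2.2 was higher in replicate 1 (43.8 against 20.9) and srpr-2.1 in replicate 2 (44.8 against 40.1).

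GC content of the peaks ranged from 40.2% at yrn-1 and 45.98% at srpr-2.1 to 58.0% at rpr-1 and 66.1% at srpr-3, against a median of 43.8% over all conservative peaks. The strongest and the weakest peak of the 8 were thus the richest in G and C. Whether GC content had a part in the signal was not tested.

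Short sequence elements were shared by some of the 8 genes. These letters were picked from the sequences of the same genes after they were seen, so the groups they form are a description only. Before rpr-1, mrpr-1 and yrn-1 stood TGTCNGNC, with its first base 55, 57 and 55 bp upstream of the start, and then GTATATA, at 31, 35 and 31 bp. Within 120 bp upstream, on either strand, TGTCNGNC occurred at 2.29% of the 41730 annotated transcript starts and GTATATA at 2.04%. No SRP RNA gene held either in that window. TTATATTT stood 29 bp upstream of srpr-1.1, srpr-1.2 and srpr-2.2. GAAAAACC ended at the base before the start in srpr-1.1, srpr-1.2, srpr-2.1 and srpr-2.2. Anywhere in that window, on either strand, TTATATTT occurred at 3.35% and GAAAAACC at 1.33% of all starts. srpr-3 held none of the 4, and no matches overlapped each other in the 8 genes.

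**Figure D4:**
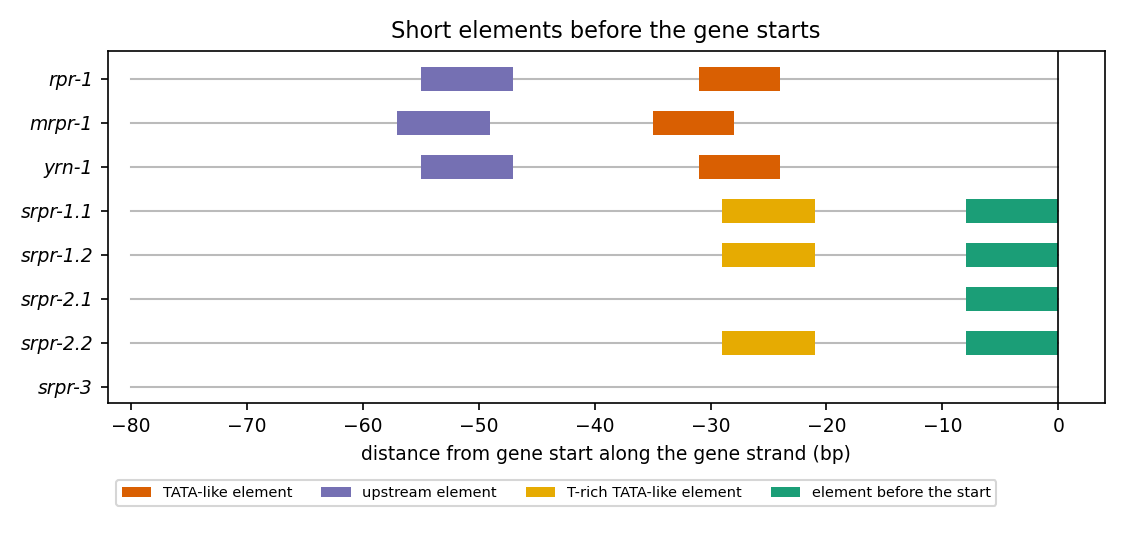
Positions of the 4 short elements in the 80 bp before each gene start, in bp along the gene strand, with each coloured box as long as its element. The upstream and TATA-like elements share their place, within 4 bp, in rpr-1, mrpr-1 and yrn-1, and the T-rich TATA-like element and the element that ends at the start are found in SRP RNA genes.

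Genes with the same elements had peaks of different rank in the conservative list, with rpr-1 at 0.142%, mrpr-1 at 0.326% and yrn-1 at 2.78%. Among the SRP RNA genes, srpr-2.1 lacks TTATATTT, and srpr-1.1 and srpr-1.2 both hold it. In the conservative list srpr-2.1 ranked between them, but in neither replicate alone. By peak signal it stood below both in replicate 1 (13.7% against 0.735% and 3.18%). In replicate 2 it stood above both (0.573% against 1.22% and 11.2%). Any part of the elements in the signal was not tested. Inside the genes, the A box core TGGCNNAGT was found in the first 120 bases from the start of none of the 8, on either strand (1.52% of all starts). The B box core GTTCNANNC was found there at yrn-1 alone (7.11% of all starts). Over the whole gene, on the gene strand, yrn-1 again held the only match to either core. Where no match was found, it says only that these letters are not in the sequence searched.

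The pair of TGTCNGNC followed by GTATATA on the gene strand, with 10 to 25 bases between them, was found within 120 bp before 13 of the 31527 genes. Of these, 10 were non-coding and 3 were protein-coding genes, and the spacer was 16 bases at 9 of the 10 non-coding genes and 14 bases at mrpr-1. The 7 that are not among the 8 genes were the ncRNA genes CD4.18, M163.12, M163.15, W01D2.7 and W01D2.9, the snRNA gene M163.13 and mir-2214. They were chosen with their values in view. M163.12, M163.13 and M163.15 start between 14476867 and 14477545 on chromosome X. W01D2.7 and W01D2.9 start at 14804502 and 14804795 on chromosome II. The 9 genes with a spacer of 16 bases are thus not spread over 9 separate regions. W01D2.7 and W01D2.9 had a conservative peak, at 0.563% of the ranked list. Among the 6437 ncRNA genes with a ranked summit within 500 bp, 4.54% had a conservative peak. CD4.18 stood at 0.729%, M163.13 at 1.55% and mir-2214 at 2.46% without one, and M163.12 and M163.15 stood at 26.97% and 40.3%. The equal places of W01D2.7 and W01D2.9 come from the same peak. The letters were taken from rpr-1, mrpr-1 and yrn-1, so the places of these genes are a description only. None of the 3 protein-coding genes, cest-32, phat-4 and str-161, had a conservative peak. Among the 15722 protein-coding genes with a ranked summit within 500 bp, 1.83% were called, so this is no result about them. cest-32 and str-161 had no such summit.

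Set beside other classes, the 8 genes ranked with the tRNA genes. In the conservative ranked list, the nearest ranked summit had a median signal percentile of 99.1 at 568 tRNA genes, 78.8 at 315 snoRNA genes, 68.1 at 107 snRNA genes, 59.8 at 6437 ncRNA genes, a class that includes the 8, and 53.5 at 15722 protein-coding genes, against 99.4 at the 8. These numbers count genes with a ranked summit within 500 bp. Of them, a conservative peak was called at 50.7% of the tRNA genes and 18.7% of the snoRNA genes, and at 10.3% of the snRNA genes. In the replicates alone, 5 of the 8 were in the top 5% in replicate 1 and 6 in replicate 2, against 62.9% and 58.8% of the 568 tRNA genes and 6.79% and 6.47% of the 25103 genes. No test of the difference was made, because the genes were chosen on these peaks.

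**Figure D5:**
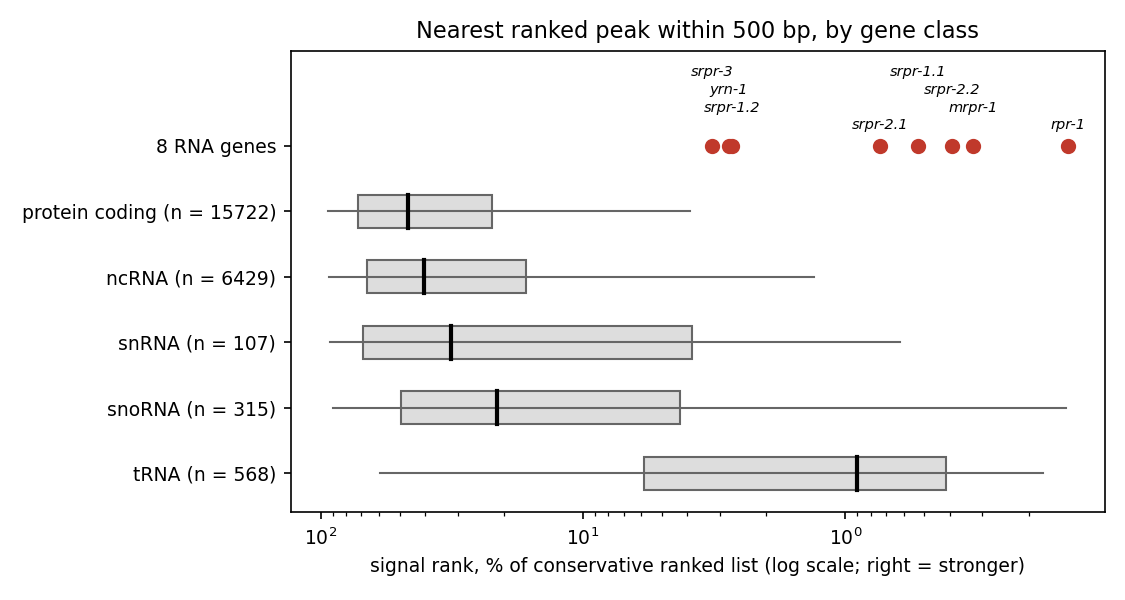
Signal rank of the nearest ranked summit within 500 bp of a gene start, as a percentage of the conservative ranked list on a log axis with stronger peaks to the right. Boxes span the middle 50% of genes of a class, lines the span from 5% to 95% of genes and thick bars the median, and the 8 genes, which are left out of the ncRNA class here, are points between 0.142% and 3.22%.

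The genes whose replicate signals were most like those of the called genes included a tRNA gene for each of the 4. Of the 960 genes with a conservative peak, 288 were tRNA genes. Likeness was the summed difference of signal percentiles in the ranked lists of the 2 replicates, over 944 candidate genes with a conservative peak. For rpr-1 these were the tRNA genes WBGene00014295 and WBGene00014296, which have the same value (difference 0.0410). For mrpr-1 they were the tRNA gene WBGene00023139 and the ncRNA gene T14F9.13, with equal percentiles (0.0846). For srpr-1.1 it was the tRNA gene WBGene00000310 (0.0425), and for srpr-2.2 the tRNA gene WBGene00023046 and the ncRNA gene F42H10.10, again with equal percentiles (0.0503).

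Protein genes listed for the same complexes and for the RNA polymerase III machinery had no thresholded peak. None of 9 SRP protein genes, 7 RNase P and MRP protein genes, 3 genes for the Ro protein and La-related proteins and 22 RNA polymerase III genes was called in any of the 4 thresholded lists. Among the 15722 protein-coding genes with a ranked summit within 500 bp, 1.83% were called in the conservative list, 1.84% in the other list, 0.992% in replicate 1 and 0.388% in replicate 2, so 0 of 41 is close to the background and is no result about these genes, of which some had no such summit. The lists were taken by symbol and by annotation text. mig-2, a Rac-like GTPase gene, entered through the text of 1 product, and popl-7 has an unrelated product name in RefSeq. Y37F4.4 is annotated as an SRP-docking protein and mafr-1 as a repressor of RNA polymerase III transcription. Not every listed gene thus encodes a part of a complex. Of the 41 genes, 31 had a ranked summit within 500 bp, with a median signal percentile of 63.0, beside 53.5 over those 15722 genes. The lists differed in this. The median was 43.1 at 7 SRP protein genes and 50.8 at 19 RNA polymerase III genes, both below 53.5. It was 83.2 at 3 RNase P and MRP protein genes and 79.4 at 2 La-related protein genes.

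All 31 stood lower in the conservative ranked list than the weakest of the 8 RNA genes there, srpr-3 at 3.22%. The 8 were chosen with their peaks known, so this contrast is a description only. In replicate 1 alone, yrn-1 and srpr-3 stood at 24.0% and 23.6%. The places of the protein genes in each replicate were not taken. The best of the 41 was larp-5, a La-related protein gene, at 5.10% of the ranked list (score 410). Among SRP protein genes the strongest summit was at srpa-72, which encodes the SRP72 subunit, at 9.28%. Among RNase P and MRP protein genes popl-5 stood at 11.1% and popl-1 at 16.8%. The gene for the Ro protein, rop-1, had its nearest ranked summit 2405 bp from the start. In the polymerase III machinery snpc-3.2, for a subunit of the snRNA-activating complex that binds proximal sequence elements, stood at 5.50%, tftc-5 of transcription factor IIIC at 6.29% and tbp-1, for the TATA-binding protein, at 15.4%. These are among the stronger of their lists. Others stood far lower, such as F25G6.9 for an SRP protein at 76.7%, rpc-2 at 79.8% and snpc-4 at 81.9%.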

How the data were processed

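Chromatin immunoprecipitation of GFP-tagged MADF-5 was followed by sequencing in 2 biological replicates. Peak lists on the ce11 build were made by the authors from alignments and a control, per the file list deposited with the samples. The deposited score is the authors' IDR score, and the deposited signal is their caller's value on an unstated scale. No source at hand names the aligner or the caller, and read depth is unknown, so no value has a counting interval. Summits are the peak start plus its offset, given 1-based. The conservative ranked list is the one that holds every conservative peak.

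Gene starts came from Ensembl release 115 and sequence from the RefSeq copy of WBcel235, whose chromosome lengths hold all peaks. A gene was called where a summit lay within 500 bp of a transcript start. The nearest-summit search was tested on simulated peaks. Genes named were the 8, genes sharing their summits, protein genes of the lists with a peak and the most alike genes. Other names were chosen after values were seen. The 8 genes and the lists were chosen with earlier results of these data known. No test was run. Python 3.11.15, pandas 2.3.3 and Biopython 1.88 were used.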

Additional observations from a re-analysis of the deposited data

How the results depend on the processing

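The count of 4 genes with a conservative peak was 4 with windows of 250 bp and 1000 bp, with peaks that overlap the gene and with RefSeq starts. It was 5 in the other whole-series list and 3 among the 50% of peaks with the highest signal, where srpr-1.1 was lost. Without replicate 1 it was 2 (rpr-1 and srpr-2.1), where 1.16% of the 25103 genes were called. Without replicate 2 it was 3 (rpr-1, mrpr-1 and srpr-2.2), where 2.04% were called. These are the own lists of replicate 2 (254 peaks) and replicate 1 (411 peaks). Both are shorter than the conservative list of 813 peaks, where 3.82% were called. Shares of all genes were not taken for the other windows, gene overlap, RefSeq starts or the stronger 50% of peaks. The median signal percentile of the 8 genes, 99.4, was 99.3 when ranked by score, 99.4 in the other list, 99.0 without replicate 1 and 98.0 without replicate 2. The other list holds the same peaks with the same signals at these 8 genes, so its value is no separate check. The count of 0 protein genes stood in each list and window tried. No paired analysis was possible because the series has 1 group. Unknown read depth limits what a missing peak means.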

Other observations

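The ranked list of each replicate also holds the signals of the 2 inputs that were compared to give its scores. Their sum was close to the signal of the peak for most of the 8 genes. At rpr-1 in replicate 1 the inputs were 25.7 and 34.6 and the peak 59.8. At srpr-2.1 in replicate 1 they were 20.1 and 16.7, which sum to 36.8, against 20.9 for the peak. That ratio of 1.76 was above those of 90.2% of the ranked peaks of replicate 1, whose median is 1.07. Ranked by summed inputs, chosen after seeing the data, srpr-2.1 stood at 1.33% of replicate 1 in place of 13.7%, and at 0.377% of replicate 2 in place of 0.573%. The low place of srpr-2.1 in replicate 1 thus depends on which of the deposited values is read, and the cause was not tested.

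At srpr-3 the inputs of replicate 2 were 15.97 and 4.43, the most unequal pair among the 8 genes, and ranked by their sum the gene stood at 23.2% in place of 9.72%. In replicate 1 it stood at 34.3% in place of 23.6%. At srpr-1.2 the inputs of replicate 2 were 8.09 and 18.3, and the place moved from 11.2% to 6.60%. The other 5 genes moved by at most 1 percentage point in either replicate.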
